A study of Mus musculus with 15 samples.

Results

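The comparison described here sets Sox2+ cells after 7 d in FGF against Sox2+ cells after 48 h in FGF/CHIR, and asks how the RNA of a neural branch changed over that interval. Its 4 libraries, 2 for FGF Sox2+ cells at 7 d and 2 for Sox2 cells at 48 h, were chosen by their labels from the 15 libraries of the series. All cells came from the mouse embryonic stem cell line STR-KI, which carries the reporters Sox2::mCherry/WT and Tbxt::GFP/WT, so both populations come from a single engineered line. Both had first passed through a neuromesodermal progenitor (NMP) step of 48 h in 10 ng/mL FGF2 and 24 h in FGF2 with 5 µM CHIR, a small molecule that activates WNT signalling by inhibiting the kinase GSK3. The FGF Sox2+ cells came from sorted mCherry-positive cells that were replated in FGF without CHIR for 7 d and sorted again for mCherry. The Sox2 48 h cells were NMPs kept in FGF with CHIR for 48 h and sorted for mCherry. Time and medium therefore changed together, and their parts in any difference cannot be told apart. The result is set beside 1 library of Sox2+ cells kept in FGF/CHIR for 7 d, and beside cells sorted for Tbxt::GFP, 2 libraries after 48 h in FGF/CHIR and 3 libraries of double negative cells that those gave after 7 d in FGF/CHIR. The labels do not say whether the libraries of a group came from separate cultures, so p-values measure a spread between libraries that may be technical. For each gene that spread is shared by all 8 groups of the fit described below. Libraries outside the comparison therefore enter each SE and p-value, which do not measure the spread of the 4 libraries alone.

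NMPs are bipotent progenitors of the tail end of the embryo that give rise to spinal cord and paraxial mesoderm. FGF and WNT signals hold cells in this caudal state, together with Cdx and posterior Hox genes. Neural progenitors that leave it take up factors such as Sox1 and Pax6, and Notch signalling between neighbouring cells then decides which of them stay progenitors and which go on, through proneural factors, to become neurons.

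Expression was given as CPM, the reads of a gene scaled to 1000000 reads per library, for libraries made from poly-A RNA with oligo-dT priming. The depth, read from the smallest step of each library, was 4.71 and 0.799 M reads (1 M being 1000000) in the FGF Sox2+ libraries, against 3.96 and 4.38 M in the Sox2 48 h libraries. A level of 3 reads, used as the floor, was 0.637 and 3.76 CPM in the FGF Sox2+ libraries and 0.757 and 0.686 CPM in the Sox2 48 h libraries, and covers counting error only. Low values of the second FGF Sox2+ library are therefore coarse, and each gene below is given with its value in the deeper first library beside it. Where a library of either group lay at or under its floor, levels and the adjusted p are given without a fold change.

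Sox2, whose reporter was used in both sorts, was present in all 4 libraries. It had 390.2 and 388 CPM in the FGF Sox2+ libraries, against 217 and 221 CPM in the Sox2 48 h libraries (log2 fold change 0.83 ± 0.33 SE, limma adjusted p = 0.0845). Tbxt, the gene of Brachyury, fell, with 4.88 and 8.76 CPM in the FGF Sox2+ libraries, against 32.1 and 29.3 CPM in the Sox2 48 h libraries (log2 fold change -2.06 ± 0.36 SE, limma adjusted p = 0.00154). Of a list of 7 neural progenitor markers, all were detected above the floor in all 4 libraries, with a summed level of 780.9 and 1202 CPM at 7 d, against 113 and 134 CPM at 48 h. A list of 8 neuron markers summed to 224 and 746 CPM at 7 d, against 31.1 and 45.4 CPM at 48 h, where Dcx was at 0 in both libraries. A list of 8 glial markers summed to 22.5 and 26.3 CPM at 7 d, against 53 and 10.1 CPM at 48 h. Of these markers 2 were tested and none was called. Gfap, Olig1 and S100b were listed at 0 in both FGF Sox2+ libraries. The FGF Sox2+ libraries held RNA of both progenitors and neurons, and in bulk RNA fewer cells of a type and less RNA per cell cannot be told apart.

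The 4 libraries were compared within a limma fit of all 15 libraries in 8 groups on log2(CPM + 1), with Benjamini-Hochberg adjustment over the 12943 genes that had at least 5 CPM in at least 2 libraries and a threshold of 0.05. In that fit, 2361 genes were higher in FGF Sox2+ cells (18.2% of those tested) and 842 were lower (6.51%). The median log2 fold change of all tested genes was 0.17. Median-of-ratios scaling brought it to 0.01 and the split to 1739 higher and 1356 lower, and quantile normalization brought it to -0.03 and the split to 1463 and 1340. Fold changes below are read against that shift. No called gene of the lists below changed direction under either scaling. Some list medians near 0 did, and they are marked where they occur. Notes of a lost call beside single genes leave out a test against a 2-fold minimum. Against that minimum 178 of the 308 called genes of the lists and of the largest changes lost their call.

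Described by the lists below, 738 genes were looked up. All were in the table, 564 passed the filter on low values, 228 of them were higher and 69 lower. For every one of these called genes both libraries of a group lay on the same side of both libraries of the other. Over all genes tested, 42.4% had no overlap with the 7 d libraries above and 21.9% with the 7 d libraries below. A gene expressed at 7 d alone can pass the filter by that group, so these counts describe the lists and are set beside the share of all genes. The plot of calls per list shows which lists lie past those shares in either direction.

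**Figure D1:**
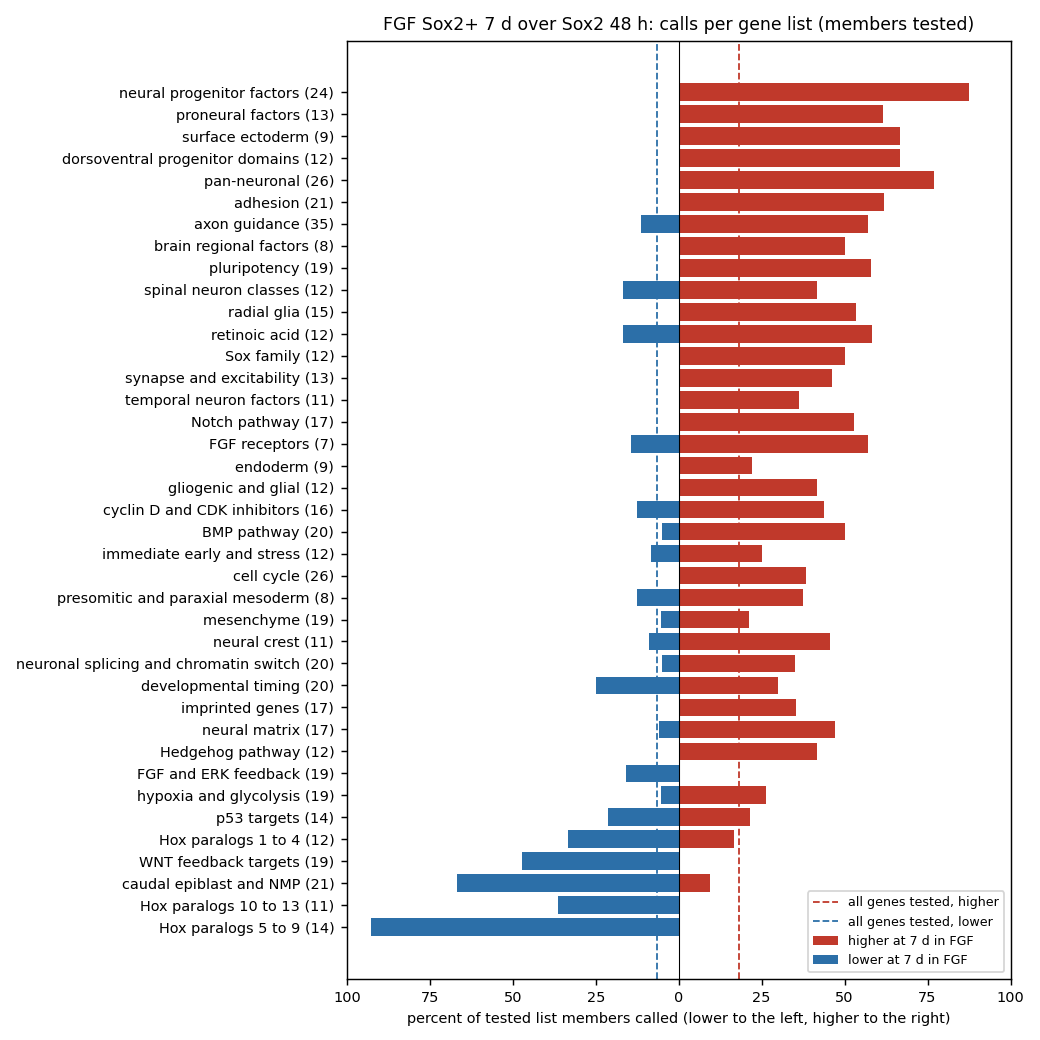
Percent of the tested members of each gene list that were called higher (red, right) or lower (blue, left) in FGF Sox2+ cells at 7 d over Sox2 48 h cells, with the number tested in brackets and lists ordered by median log2 fold change. The dashed lines give the shares of all 12943 tested genes, 18.2% higher and 6.51% lower. Neural progenitor factors lie at 87.5% higher and Hox paralogs 5 to 9 at 92.9% lower.

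The neural progenitor factors were the list with the highest share of members called higher. Of 24 transcription factors, all tested, 21 were higher, none was lower, and the median log2 fold change was 3.23, against 0.17 over all genes. Sox1, a SoxB1 factor that marks committed neural progenitors, had 112 and 179 CPM in the FGF Sox2+ libraries, against 14.9 and 12.1 CPM in the Sox2 48 h libraries (log2 fold change 3.31 ± 0.36 SE, limma adjusted p = 5.67e-05). Sox3, its relative that is already active in the epiblast, had 128 and 109 CPM at 7 d, against 44.7 and 51.7 CPM at 48 h (log2 fold change 1.28 ± 0.31 SE, limma adjusted p = 0.0102, not called without 7 d library 1 or 48 h library 1). Sox21, a SoxB2 factor that opposes SoxB1 activity, had 80.7 and 61.4 CPM at 7 d, against 2.27 and 0.457 CPM at 48 h (limma adjusted p = 5.84e-06). For each of these genes both 7 d libraries lay well above both 48 h libraries.

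The POU factors Pou3f1 to Pou3f4, which act with Sox factors on neural enhancers, were all higher. Pou3f3 had 70.1 and 136 CPM in the FGF Sox2+ libraries, against 1.26 and 0.457 CPM in the Sox2 48 h libraries (limma adjusted p = 4.14e-06). Pou3f1, also known as Oct6, had 178 and 104 CPM at 7 d, against 4.80 and 2.97 CPM at 48 h (log2 fold change 4.83 ± 0.49 SE, limma adjusted p = 3.16e-05). Pou3f2 had 109 and 162 CPM at 7 d, against 19.7 and 27.2 CPM at 48 h (log2 fold change 2.47 ± 0.33 SE, limma adjusted p = 0.000259). The 7 d libraries did not share an order, since Pou3f1 was higher in the first and the other 2 in the second, but in none of the 3 did the groups overlap. Rfx4, a regulator of ciliary genes and dorsal neural tube patterning, had 37.8 and 48.8 CPM in the FGF Sox2+ libraries and was listed at 0 in both Sox2 48 h libraries (limma adjusted p = 2.54e-06). Nr2f1, an orphan nuclear receptor also called COUP-TFI, had 257 and 498 CPM in the FGF Sox2+ libraries, against 2.02 and 24 CPM in the Sox2 48 h libraries (log2 fold change 5.37 ± 0.76 SE, limma adjusted p = 0.000839, not called under a fit of the 4 libraries alone). Its 48 h libraries lay far apart, with the second above the first, and both remained well below the 7 d libraries. Nr2f2 had 248 and 384 CPM at 7 d, against 50.6 and 74.5 CPM at 48 h (log2 fold change 2.31 ± 0.39 SE, limma adjusted p = 0.00175).

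Meis1 and Meis2, TALE cofactors of Hox proteins, were both higher. Meis1 had 158 and 197 CPM in the FGF Sox2+ libraries, against 12.4 and 16.8 CPM in the Sox2 48 h libraries (log2 fold change 3.52 ± 0.24 SE, limma adjusted p = 2.54e-06). Meis2 had 230.4 and 419 CPM at 7 d, against 20.9 and 26.9 CPM at 48 h (log2 fold change 3.66 ± 0.28 SE, limma adjusted p = 4.48e-06). The Iroquois factors, which set domain borders in the neural tube, moved the same way. Irx2 had 93 and 132 CPM at 7 d, against 13.4 and 9.83 CPM at 48 h (log2 fold change 3.16 ± 0.42 SE, limma adjusted p = 0.000235). Irx5 had 80.7 and 72.6 CPM at 7 d, against 7.07 and 5.71 CPM at 48 h (log2 fold change 3.40 ± 0.63 SE, limma adjusted p = 0.00327, not called under a voom fit). Irx3 had 109 and 116 CPM at 7 d, against 17.7 and 22.4 CPM at 48 h (log2 fold change 2.44 ± 0.58 SE, limma adjusted p = 0.0117, not called without 7 d library 2 or 48 h library 1). The groups did not overlap for any of these 5 genes. Zic5, a zinc finger factor, had 77.7 and 114 CPM at 7 d, against 20.8 and 23.5 CPM at 48 h (log2 fold change 2.04 ± 0.30 SE, limma adjusted p = 0.000513). Zic1, with 62.2 and 170.3 CPM at 7 d, against 192 and 182 CPM at 48 h, did not pass the threshold (log2 fold change -0.85 ± 0.39 SE, limma adjusted p = 0.137). Both 7 d libraries of Zic1 lay below both 48 h libraries, the first by far, and without the second 7 d library the gene was called lower. The other list members without a call were Hes1, a repressor that Notch and other signals induce, and Lhx2, a forebrain factor whose groups overlapped. Hes1 had 134 and 128 CPM at 7 d, against 243 and 186 CPM at 48 h (log2 fold change -0.70 ± 0.49 SE, limma adjusted p = 0.329).

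**Figure D2:**
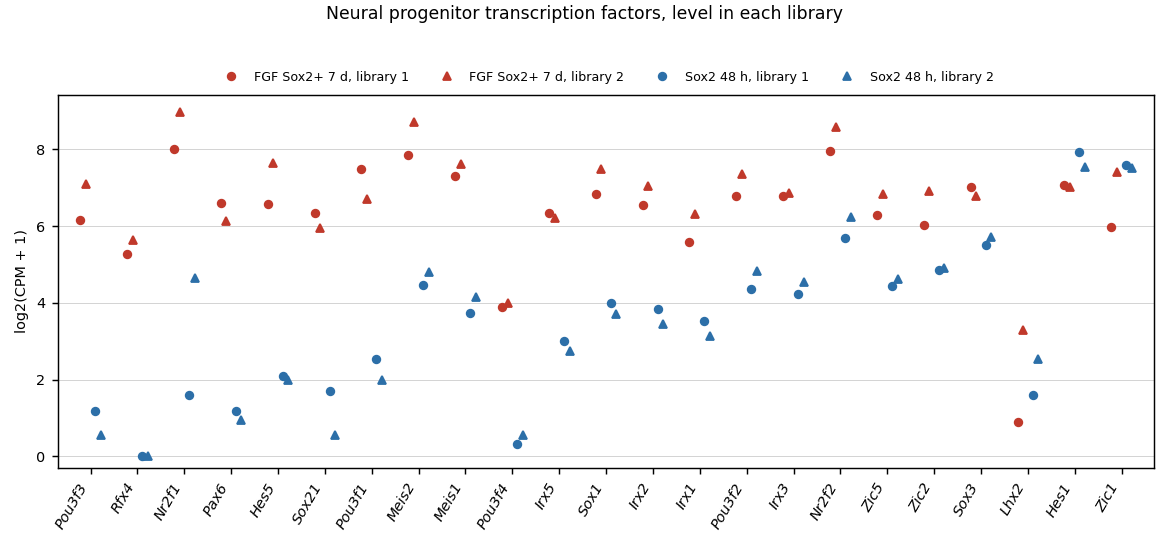
Level of 23 of the 24 neural progenitor transcription factors in each library as log2(CPM + 1), ordered by log2 fold change, with FGF Sox2+ 7 d libraries (red) left of Sox2 48 h libraries (blue) and circles for library 1 and triangles for library 2. In 20 genes both red points lie above both blue points. Lhx2, Hes1 and Zic1 at the right do not show this.

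Radial glia, the elongated progenitors of the neural tube, express a further set of genes. Of 16 list members, 15 were tested, 8 were higher and none was lower, with a median of 1.63. Fabp7, a brain fatty acid binding protein, had 287 and 571 CPM in the FGF Sox2+ libraries, against 4.54 and 4.80 CPM in the Sox2 48 h libraries (log2 fold change 6.16 ± 0.44 SE, limma adjusted p = 3.9e-06). Its log2 fold change was the largest of the list. Msi1, an RNA-binding protein that keeps progenitors from differentiating, had 298 and 408 CPM in the FGF Sox2+ libraries, against 101 and 93.9 CPM in the Sox2 48 h libraries (log2 fold change 1.83 ± 0.21 SE, limma adjusted p = 7.1e-05). Ptprz1, a receptor phosphatase of radial glia, had 16.4 and 20.03 CPM at 7 d, against 3.03 and 2.29 CPM at 48 h (log2 fold change 2.39 ± 0.35 SE, limma adjusted p = 0.000484). Ttyh1, a membrane protein enriched in neural stem cells, had 7.01 and 15.02 CPM at 7 d, against 0.252 and 0 CPM at 48 h (limma adjusted p = 9.18e-05). Members with RNA at 48 h already were among those not called. Vim, which encodes the intermediate filament vimentin, had 545 and 1028 CPM at 7 d, against 699 and 1028 CPM at 48 h (log2 fold change -0.18 ± 0.29 SE, limma adjusted p = 0.68). The groups overlapped. Cdh2, encoding N-cadherin, had 102 and 123 CPM at 7 d, against 94.6 and 105 CPM at 48 h (log2 fold change 0.17 ± 0.21 SE, limma adjusted p = 0.573). Slc1a3, the glial glutamate transporter GLAST, had 22.5 and 15.02 CPM at 7 d, against 31.3 and 42.97 CPM at 48 h (log2 fold change -0.96 ± 0.86 SE, limma adjusted p = 0.448).

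Progenitors of the neural tube are ordered from dorsal to ventral by the factors they express. Of 23 such factors, 12 were tested, 8 were higher and none was lower. The called members included the 5 dorsal factors given here. Pax7, a dorsal factor, had 18.1 and 32.5 CPM in the FGF Sox2+ libraries, against 1.01 and 1.14 CPM in the Sox2 48 h libraries (log2 fold change 3.61 ± 0.38 SE, limma adjusted p = 4.29e-05). Msx3, found in the dorsal neural tube, had 32.1 and 72.6 CPM at 7 d, against 0.252 and 0 CPM at 48 h (limma adjusted p = 5.41e-06). Msx2, a roof plate and dorsal midline factor that BMP induces, had 13.2 and 15.02 CPM at 7 d, against 0.757 and 0.914 CPM at 48 h (limma adjusted p = 0.00286, not called under a voom fit). Gsx1, of the dorsal interneuron progenitors, had 11.9 and 26.3 CPM at 7 d and was listed at 0 in both libraries at 48 h (limma adjusted p = 3.16e-05). Olig3, which marks the most dorsal domains, had 11.5 and 88.9 CPM at 7 d and was listed at 0 in both libraries at 48 h (limma adjusted p = 0.000205). Each of these genes was higher in the second 7 d library than in the first, by the widest margin for Olig3, and neither 48 h library reached either of them. Atoh1, of the most dorsal progenitors, was not tested, with 1.06 and 40.1 CPM at 7 d, against 0.505 and 0.229 CPM at 48 h. It was near the floor in the first 7 d library and high in the second. Gsx2, which like Gsx1 marks dorsal interneuron progenitors in the spinal cord, was not tested and was listed at 0 in all 4 libraries.

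Of the ventral factors, Foxa2 was called and the others were near their floors or not called. Olig2, of motor neuron progenitors, had 0.637 and 1.25 CPM at 7 d and was listed at 0 in both libraries at 48 h. Nkx2-2 was listed at 0 in both 7 d libraries, and Shh, the floor plate signal, had 0.212 and 0 CPM at 7 d and was listed at 0 in both libraries at 48 h. Nkx6-1, a ventral factor, had 10.2 and 3.76 CPM at 7 d, against 14.9 and 53.03 CPM at 48 h (limma adjusted p = 0.1). Its 48 h libraries differed widely. Foxa2, of floor plate and endoderm, had 1.70 and 2.50 CPM at 7 d and was listed at 0 in both libraries at 48 h (limma adjusted p = 0.00382, not called under a fit of the 4 libraries alone). Its second 7 d value was under the floor. Pax3, a dorsal factor with 72.4 and 132 CPM at 7 d, against 21.7 and 20.1 CPM at 48 h, did not pass the threshold (log2 fold change 2.17 ± 1.08 SE, limma adjusted p = 0.177). The groups did not overlap.

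Proneural factors start neuronal differentiation. Of 23 members, 13 were tested, 8 were higher and none was lower, with a median log2 fold change of 3.21. Neurog2, a basic helix-loop-helix factor of many spinal and sensory lineages, had 4.67 and 37.6 CPM in the FGF Sox2+ libraries, against 0.757 and 0.457 CPM in the Sox2 48 h libraries (limma adjusted p = 0.00342, not called under a voom fit). Insm1, which promotes the divisions that yield neurons, had 15.5 and 54.5 CPM at 7 d, against 0 and 0.457 CPM at 48 h (limma adjusted p = 7.28e-05). Nhlh2, a factor of newly born neurons, had 11.2 and 42.6 CPM at 7 d and was listed at 0 in both libraries at 48 h (limma adjusted p = 6.61e-05). In all 3 genes the second 7 d library was the higher of the 2, and both lay above the 48 h libraries. Ebf2 had 13.8 and 53.8 CPM at 7 d and was listed at 0 in both libraries at 48 h (limma adjusted p = 0.00222), whereas its relatives Ebf1 and Ebf3 were not called. Btg2, an antiproliferative gene of neurogenic divisions, had 82.4 and 93.9 CPM at 7 d, against 29.3 and 26.5 CPM at 48 h (log2 fold change 1.62 ± 0.35 SE, limma adjusted p = 0.00627, not called without 48 h library 2). Sox4, a SoxC factor, and Hes6, an antagonist of Hes1, did not pass the threshold. Sox4 had 362 and 511 CPM at 7 d, against 381 and 377 CPM at 48 h (log2 fold change 0.18 ± 0.39 SE, limma adjusted p = 0.769). Hes6 had 18.1 and 43.8 CPM at 7 d, against 27.01 and 30.4 CPM at 48 h (log2 fold change -0.02 ± 0.62 SE, limma adjusted p = 0.986).

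All 13 tested proneural factors were higher in the second 7 d library than in the first, with a median difference of -1.28 on the log2 scale (library 1 minus library 2). For all genes that median was 0.01. Without the second 7 d library 7 proneural factors were called higher, against 8 with it. A voom fit called 5 higher.

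Notch receptors, ligands and targets were measured next to the proneural factors. Of 20 members, 17 were tested, 9 were higher and none was lower, and a voom fit called 5 higher. Among the receptors, Notch1 had 57.3 and 91.4 CPM in the FGF Sox2+ libraries, against 26.5 and 20.3 CPM in the Sox2 48 h libraries (log2 fold change 1.60 ± 0.27 SE, limma adjusted p = 0.00128). Notch3 had 27.2 and 22.5 CPM at 7 d, against 26.8 and 19.4 CPM at 48 h (log2 fold change 0.11 ± 0.22 SE, limma adjusted p = 0.739). Among the ligands, which differentiating cells present to their neighbours, Dll1 had 35.7 and 78.9 CPM at 7 d, against 6.06 and 4.11 CPM at 48 h (log2 fold change 3.17 ± 0.48 SE, limma adjusted p = 0.000681). Dll3, a ligand that acts within the presenting cell, had 12.3 and 48.8 CPM at 7 d, against 6.31 and 5.49 CPM at 48 h (log2 fold change 1.90 ± 0.45 SE, limma adjusted p = 0.00925, not called under a fit of the 4 libraries alone or a voom fit or without 48 h library 2). Jag1 had 32.7 and 68.9 CPM at 7 d, against 33.1 and 35.2 CPM at 48 h (log2 fold change 0.47 ± 0.34 SE, limma adjusted p = 0.331). Its 7 d libraries lay on either side of the 48 h values. Lfng, a glycosyltransferase that tunes the response of the receptors to Delta and Jagged ligands, had 19.1 and 31.3 CPM at 7 d, against 2.02 and 2.51 CPM at 48 h (log2 fold change 2.97 ± 0.30 SE, limma adjusted p = 3.45e-05). Rbpj, the DNA-binding partner of the Notch intracellular domain, had 112 and 90.8 CPM at 7 d, against 48.5 and 48.5 CPM at 48 h (log2 fold change 1.04 ± 0.21 SE, limma adjusted p = 0.00365).

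Notch targets did not move as one. Hes5, the target most tied to neural progenitors, had 94.5 and 198 CPM at 7 d, against 3.28 and 2.97 CPM at 48 h (log2 fold change 5.06 ± 0.34 SE, limma adjusted p = 2.54e-06). Nrarp, a feedback inhibitor, had 36.1 and 62.6 CPM in the FGF Sox2+ libraries, against 27.01 and 17.6 CPM in the Sox2 48 h libraries (log2 fold change 1.09 ± 0.38 SE, limma adjusted p = 0.0508). Hey1 had 7.22 and 12.5 CPM at 7 d, against 11.9 and 12.6 CPM at 48 h (log2 fold change -0.33 ± 0.26 SE, limma adjusted p = 0.388). Hey2 had 1.49 and 2.50 CPM at 7 d, against 5.55 and 5.03 CPM at 48 h (limma adjusted p = 0.0905). Hes1 was not called, as given above, and Heyl was not tested. The groups did not overlap for Nrarp or Hey2, yet neither passed the threshold.

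Promoter sequences are printed for the members whose window holds the core letters of the RBPJ motif and whose RNA was called higher with the largest changes, Hes5 and Lfng. The windows are RefSeq sequences of the 250 bases before the annotated start, on GRCm38.p6, a build other than the GRCm39 of the alignment, on the plus strand and 5′ to 3′. Capitals mark TGGGAA or its reverse complement TTCCCA, which do not overlap here.
Hes5, chr4:154960673-154960922: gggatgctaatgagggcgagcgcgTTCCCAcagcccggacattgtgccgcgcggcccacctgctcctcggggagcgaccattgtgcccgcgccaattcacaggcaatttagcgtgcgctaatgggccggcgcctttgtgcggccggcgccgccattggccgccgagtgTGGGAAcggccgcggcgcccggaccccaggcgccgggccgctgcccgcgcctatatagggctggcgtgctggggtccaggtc
Lfng, chr5:140607091-140607340: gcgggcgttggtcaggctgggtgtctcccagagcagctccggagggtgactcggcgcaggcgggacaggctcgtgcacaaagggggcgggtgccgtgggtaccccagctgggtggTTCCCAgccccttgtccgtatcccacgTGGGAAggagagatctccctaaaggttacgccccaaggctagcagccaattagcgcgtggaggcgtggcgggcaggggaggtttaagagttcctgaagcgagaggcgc
The matches begin 226 and 82 bases before the start in Hes5, and 135 and 108 bases before it in Lfng. Of the 20 Notch list members, 16 had a window and 5 of these held a match. Some members had more than 1 window, and by window 6 of 19 held a match. Over 32851 windows of the same length, 21.6% held at least 1 match. A match describes letters in a window and no binding was measured.

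The pan-neuronal list covers cytoskeletal, RNA-binding and secretory genes that most neurons share. Of 30 members, 26 were tested, 20 were higher and none was lower, with a median log2 fold change of 2.53. Without the second 7 d library 13 were called higher, and a voom fit called 16. Ina, encoding the neurofilament protein internexin, had 22.3 and 76.4 CPM in the FGF Sox2+ libraries, against 1.01 and 3.89 CPM in the Sox2 48 h libraries (log2 fold change 3.76 ± 0.59 SE, limma adjusted p = 0.000945). Nefm, encoding the medium neurofilament, had 11.5 and 30.1 CPM at 7 d, against 0 and 1.37 CPM at 48 h (limma adjusted p = 0.000626). Map2, a dendritic microtubule protein, had 25.7 and 76.4 CPM at 7 d, against 5.30 and 3.20 CPM at 48 h (log2 fold change 3.14 ± 0.46 SE, limma adjusted p = 0.000462). Elavl4, an RNA-binding protein of neurons also called HuD, had 34.8 and 109 CPM at 7 d, against 10.6 and 8.23 CPM at 48 h (log2 fold change 2.60 ± 0.42 SE, limma adjusted p = 0.000949). In these 4 genes the second 7 d library was well above the first, and both lay above the 48 h libraries.

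For Nsg2, Mapt and Map1b the 7 d libraries lay closer together. Nsg2, a vesicle protein of neurons, had 56.05 and 80.1 CPM in the FGF Sox2+ libraries, against 3.03 and 0.686 CPM in the Sox2 48 h libraries (limma adjusted p = 7.1e-05). Mapt, encoding tau, had 8.28 and 7.51 CPM at 7 d, against 0.505 and 0 CPM at 48 h (limma adjusted p = 0.000228). Map1b, a microtubule protein of growing axons, had 233 and 361 CPM at 7 d, against 87.8 and 135 CPM at 48 h (log2 fold change 1.40 ± 0.33 SE, limma adjusted p = 0.00982, not called without 7 d library 2 or 48 h library 1). Tubb3, the tubulin most often used to mark neurons, had 57.5 and 263 CPM at 7 d, against 9.59 and 26.4 CPM at 48 h (log2 fold change 2.87 ± 0.88 SE, limma adjusted p = 0.0418, not called under median-of-ratios scaling, quantile normalization, a fit of the 4 libraries alone or a voom fit or without 7 d library 2, 48 h library 1 or 48 h library 2). For Tubb3 the second library stood far above the first in both groups. Uchl1, Gap43 and Crmp1 were not called and had RNA at 48 h already. Uchl1, a ubiquitin hydrolase, had 68.2 and 91.4 CPM at 7 d, against 129 and 115 CPM at 48 h (log2 fold change -0.62 ± 0.39 SE, limma adjusted p = 0.264). Gap43, a growth cone protein, had 18.5 and 66.4 CPM at 7 d, against 42.9 and 45.3 CPM at 48 h (log2 fold change -0.32 ± 0.62 SE, limma adjusted p = 0.744). Its 7 d libraries lay on either side of the 48 h values. Crmp1 had 65.6 and 134 CPM at 7 d, against 52.8 and 54.9 CPM at 48 h (log2 fold change 0.79 ± 0.33 SE, limma adjusted p = 0.104).

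**Figure D3:**
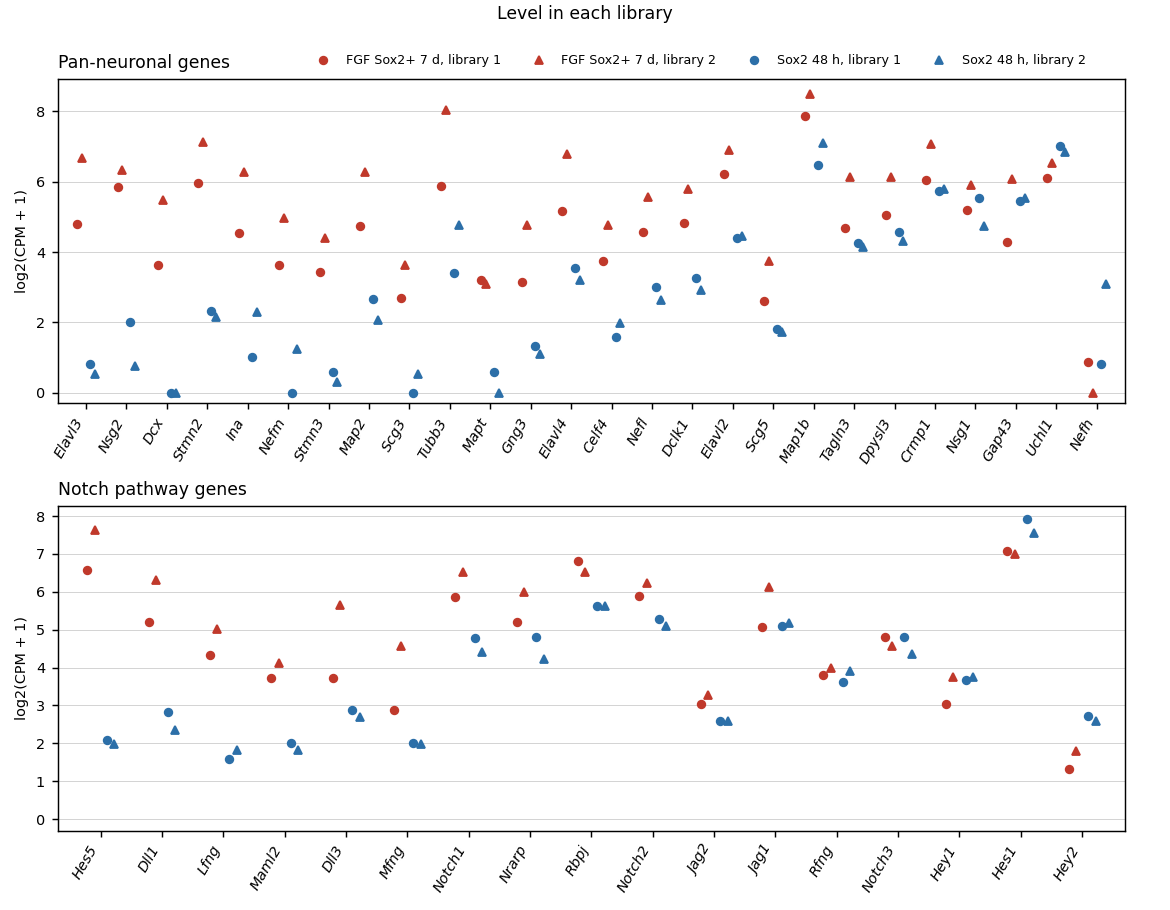
Level in each library as log2(CPM + 1) of the 26 tested pan-neuronal genes (top) and the 17 tested Notch pathway genes (bottom), ordered by log2 fold change, with FGF Sox2+ 7 d libraries (red) left of Sox2 48 h libraries (blue), circles for library 1 and triangles for library 2. Among the pan-neuronal genes the red triangle lies above the red circle in 24 of 26. Hes1 and Hey2 are the Notch genes with both red points below both blue points.

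Markers of functional maturity were sparse. Of 31 genes of synapses and excitability, 13 passed the filter, 6 were higher and none was lower. Syt11, a synaptotagmin that is also found outside neurons, had 99.2 and 136 CPM in the FGF Sox2+ libraries, against 29.3 and 34.1 CPM in the Sox2 48 h libraries (log2 fold change 1.85 ± 0.22 SE, limma adjusted p = 0.000112). Gria2, an AMPA receptor subunit, had 2.76 and 10.02 CPM at 7 d and was listed at 0 in both libraries at 48 h (limma adjusted p = 0.00169). Glra1, a glycine receptor subunit and among the 12 genes with the largest increases of the comparison, had 38.01 and 62.6 CPM at 7 d and was listed at 0 in both libraries at 48 h (limma adjusted p = 2.54e-06). Vamp2, a vesicle fusion protein of many cells, had 8.07 and 15.02 CPM at 7 d, against 13.6 and 9.60 CPM at 48 h (log2 fold change -0.05 ± 0.29 SE, limma adjusted p = 0.922). The groups overlapped. Gria1 and Grin1 were listed at 0 in both 7 d libraries.

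Most transmitter genes were at or near their floors. Of 14 members, 2 were tested. Prph, which encodes the neurofilament peripherin and was placed in this list as a marker of projecting neurons, had 15.5 and 8.76 CPM in the FGF Sox2+ libraries, against 0.252 and 0.686 CPM in the Sox2 48 h libraries (limma adjusted p = 0.00012). Gad1, a GABA-synthesizing enzyme, fell, with 0.425 and 0 CPM at 7 d, against 2.52 and 2.51 CPM at 48 h (limma adjusted p = 0.00491, not called under a fit of the 4 libraries alone or a voom fit). The vesicular glutamate transporter Slc17a6 had 0.849 and 2.50 CPM at 7 d and was listed at 0 in both libraries at 48 h. Its level was under the floor in the second 7 d library. Chat, Slc32a1 and Tph2 were listed at 0 in all 4 libraries.

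Among 30 factors of spinal neuron classes, 12 were tested, 5 were higher and 2 were lower. Phox2a, a factor of hindbrain visceral motor and autonomic neurons, had 13.6 and 43.8 CPM in the FGF Sox2+ libraries, against 4.29 and 2.06 CPM in the Sox2 48 h libraries (log2 fold change 2.67 ± 0.48 SE, limma adjusted p = 0.00169). En1, of ventral interneurons and of the midbrain-hindbrain border, had 14.2 and 17.5 CPM at 7 d, against 1.77 and 3.89 CPM at 48 h (log2 fold change 2.19 ± 0.32 SE, limma adjusted p = 0.000441). The second 7 d library was the higher in both, by the wider margin for Phox2a. Barhl1, of dorsal interneurons, was not tested, with 0.212 and 20.03 CPM at 7 d, against 0.252 and 0.229 CPM at 48 h. It was under its floor in the first 7 d library and high in the second. The 2 members that fell are also genes of the caudal embryo. Mnx1, known in spinal motor neurons and in tail bud and endoderm, had 0.425 and 1.25 CPM at 7 d, against 16.7 and 20.1 CPM at 48 h (limma adjusted p = 6.72e-06). Evx1, known in a class of spinal interneurons and in the primitive streak, had 4.03 and 2.50 CPM at 7 d, against 71.4 and 72.5 CPM at 48 h (limma adjusted p = 0.00539). Isl2 was listed at 0 in all 4 libraries and Isl1, of motor neurons, had 1.27 and 0 CPM at 7 d, against 0 and 0.229 CPM at 48 h.

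Of 17 brain regional factors 8 were tested, 4 were higher and none was lower. Among the 4 were factors known from the hindbrain and from its border with the midbrain. Egr2, which marks rhombomeres of the hindbrain, had 23.99 and 51.3 CPM in the FGF Sox2+ libraries, against 0.252 and 0.457 CPM in the Sox2 48 h libraries (limma adjusted p = 0.000137). En2, of the midbrain-hindbrain border, had 11.9 and 17.5 CPM at 7 d, against 2.02 and 3.20 CPM at 48 h (log2 fold change 2.12 ± 0.39 SE, limma adjusted p = 0.00194). Gbx2, of anterior hindbrain and also of the caudal epiblast, had 64.5 and 60.1 CPM at 7 d, against 91.1 and 116 CPM at 48 h (log2 fold change -0.71 ± 0.35 SE, limma adjusted p = 0.161). The forebrain factors Emx1, Nkx2-1 and Hesx1 were listed at 0 in all 4 libraries. Otx2, of forebrain, midbrain and epiblast, was found in 1 of the 4 libraries, the first at 7 d, at 7.01 CPM.

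Of 15 factors that mark early and late born neurons, 11 were tested and 4 were higher. Onecut2, of early born neurons, had 25.7 and 72.6 CPM in the FGF Sox2+ libraries, against 7.32 and 6.40 CPM in the Sox2 48 h libraries (log2 fold change 2.50 ± 0.39 SE, limma adjusted p = 0.000685). Zfhx4 had 62 and 88.9 CPM at 7 d, against 26.5 and 27.2 CPM at 48 h (log2 fold change 1.43 ± 0.24 SE, limma adjusted p = 0.000987). Zfhx3 had 77.5 and 114 CPM at 7 d, against 48.3 and 40 CPM at 48 h (log2 fold change 1.08 ± 0.27 SE, limma adjusted p = 0.0127, not called under a voom fit or without 7 d library 2 or 48 h library 2). The late factors Nfia and Nfib, which also start gliogenesis, were not called. Nfia had 11.04 and 32.5 CPM at 7 d, against 24.2 and 28.1 CPM at 48 h (log2 fold change -0.43 ± 0.38 SE, limma adjusted p = 0.428). Nfib had 14.9 and 25.04 CPM at 7 d, against 12.8 and 18.3 CPM at 48 h (log2 fold change 0.32 ± 0.73 SE, limma adjusted p = 0.785). Of 23 gliogenic and glial genes, 12 were tested and 5 were higher. Without either 48 h library 1 was higher and 1 lower, and quantile normalization left 2 higher. Sox9, of progenitors and glia, had 42.5 and 91.4 CPM at 7 d, against 8.83 and 6.40 CPM at 48 h (log2 fold change 2.89 ± 0.78 SE, limma adjusted p = 0.0233, not called under a voom fit or without 7 d library 2, 48 h library 1 or 48 h library 2). Fgfr3, of ventricular zone progenitors and astrocytes, had 28.2 and 28.8 CPM at 7 d, against 0.757 and 0 CPM at 48 h (limma adjusted p = 0.000365). Olig1 was listed at 0 in all 4 libraries, and Gfap, the filament gene of astrocytes, was at or under its floor in all 4.

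Hox genes code position along the body axis, and their paralog groups run from hindbrain (low numbers) to tail (high numbers). Nearly all trunk Hox genes fell, while 2 hindbrain genes rose. Of 12 tested genes of paralogs 1 to 4, 2 were higher and 4 lower. Without either 48 h library 1 of them was higher and 3 lower, and median-of-ratios scaling and the replicate block each gave 1 higher and 5 lower. Of 15 genes of paralogs 5 to 9, 14 were tested, 13 were lower and none was higher, with a median log2 fold change of -1.73. Of 12 genes of paralogs 10 to 13, 11 were tested, 4 were lower and none was higher. Without the second 7 d library 9 genes of paralogs 5 to 9 were called lower, and a voom fit called 2 of paralogs 10 to 13. How reads of overlapping and antisense transcripts of the clusters were assigned is not given in the sources used here, so neighbouring genes may share reads.

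Hoxa2, the most anterior Hox gene of the hindbrain, had 52.4 and 82.6 CPM in the FGF Sox2+ libraries, against 15.8 and 12.2 CPM in the Sox2 48 h libraries (log2 fold change 2.17 ± 0.30 SE, limma adjusted p = 0.000325). Hoxb2 had 85.6 and 168 CPM at 7 d, against 58.4 and 59.7 CPM at 48 h (log2 fold change 1.01 ± 0.32 SE, limma adjusted p = 0.0382, not called under no filter, median-of-ratios scaling, a fit of the 4 libraries alone or a replicate block or without 7 d library 2, 48 h library 1 or 48 h library 2). Hoxa3 and Hoxb1, also of the hindbrain, were not called. Hoxa3 had 41.4 and 85.1 CPM at 7 d, against 56.5 and 45.3 CPM at 48 h (log2 fold change 0.23 ± 0.30 SE, limma adjusted p = 0.611). Hoxb1 had 20.2 and 6.26 CPM at 7 d, against 8.08 and 4.34 CPM at 48 h (log2 fold change 0.83 ± 0.42 SE, limma adjusted p = 0.163). Of the paralog 4 genes, Hoxa4, Hoxb4 and Hoxc4 fell and Hoxd4 was not called. Hoxb4 had 17.6 and 12.5 CPM in the FGF Sox2+ libraries, against 74.3 and 81.4 CPM in the Sox2 48 h libraries (log2 fold change -2.31 ± 0.30 SE, limma adjusted p = 0.00022). Hoxc4 had 19.96 and 15.02 CPM at 7 d, against 52.8 and 53.9 CPM at 48 h (log2 fold change -1.57 ± 0.19 SE, limma adjusted p = 0.000112). Hoxd1 also fell, with 0.849 and 3.76 CPM at 7 d, against 34.6 and 34.7 CPM at 48 h (limma adjusted p = 6.27e-05).

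In the trunk group the largest decrease with all libraries above the floor was that of Hoxc6, with 26.96 and 22.5 CPM in the FGF Sox2+ libraries, against 191 and 198 CPM in the Sox2 48 h libraries (log2 fold change -2.93 ± 0.24 SE, limma adjusted p = 7.35e-06). Hoxa7 had 35.03 and 31.3 CPM at 7 d, against 176 and 139 CPM at 48 h (log2 fold change -2.21 ± 0.24 SE, limma adjusted p = 5.67e-05). Hoxc8 had 40.5 and 23.8 CPM at 7 d, against 126 and 101 CPM at 48 h (log2 fold change -1.83 ± 0.24 SE, limma adjusted p = 0.000211). Hoxb9 had 76.01 and 55.1 CPM at 7 d, against 179.7 and 202 CPM at 48 h (log2 fold change -1.54 ± 0.33 SE, limma adjusted p = 0.00592, not called without 7 d library 2). Hoxd9 had 5.31 and 0 CPM at 7 d, against 44.9 and 32.2 CPM at 48 h (limma adjusted p = 0.00244). In each of these genes both 7 d libraries lay below both 48 h libraries, and the RNA of all but Hoxd9 was detected above the floor in both 7 d libraries. Among the posterior genes, Hoxc10 had 17.9 and 35.1 CPM at 7 d, against 196 and 214 CPM at 48 h (log2 fold change -2.98 ± 0.41 SE, limma adjusted p = 0.00046). Hoxa10 had 6.37 and 15.02 CPM at 7 d, against 39.8 and 37.9 CPM at 48 h (log2 fold change -1.87 ± 0.27 SE, limma adjusted p = 0.000422). Genes of paralogs 12 and 13 were at low levels throughout. The highest was Hoxc13, with 0.849 and 0 CPM at 7 d, against 1.77 and 6.17 CPM at 48 h (limma adjusted p = 0.0941).

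**Figure D4:**
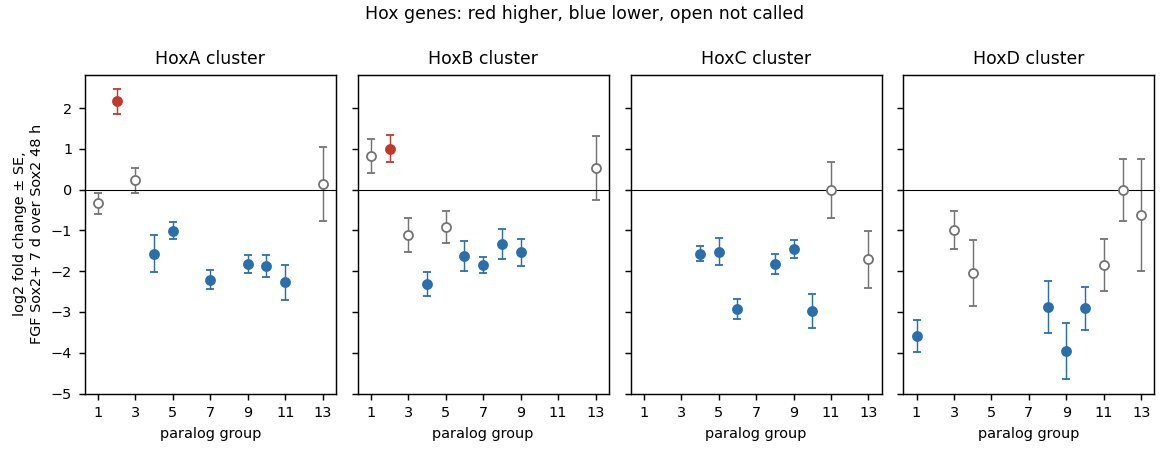
Log2 fold change ± SE of each tested Hox gene in FGF Sox2+ cells at 7 d over Sox2 48 h cells, by paralog group along the x axis and by cluster in the panels, with red for higher, blue for lower and open points for no call. Hoxa2 and Hoxb2 lie above 0, and the 13 called genes of paralogs 5 to 9 lie below it.

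Most genes of the caudal epiblast and of NMPs fell. Of 21 members, all tested, 14 were lower, 2 were higher and 5 were not called, with a median log2 fold change of -1.64. Without the second 7 d library 11 were lower and 4 higher. Cdx2, a regulator of posterior Hox genes, had 103 and 90.2 CPM in the FGF Sox2+ libraries, against 504 and 499.6 CPM in the Sox2 48 h libraries (log2 fold change -2.37 ± 0.22 SE, limma adjusted p = 1.58e-05). Cdx1, among the 12 largest decreases of the comparison, had 1.70 and 0 CPM at 7 d, against 55.3 and 67.2 CPM at 48 h (limma adjusted p = 4.48e-06). Nkx1-2, a marker of the caudal lateral epiblast, had 36.1 and 53.8 CPM at 7 d, against 238 and 234 CPM at 48 h (log2 fold change -2.39 ± 0.30 SE, limma adjusted p = 0.000171). Both 7 d libraries lay below both 48 h libraries in each, and Cdx2 and Nkx1-2 were still measured well above the floor at 7 d. Wnt5b had 5.10 and 1.25 CPM at 7 d, against 46.4 and 44.8 CPM at 48 h (limma adjusted p = 1.86e-05). Fgf17 had 0.849 and 2.50 CPM at 7 d, against 13.6 and 16.2 CPM at 48 h (limma adjusted p = 0.000442). Gdf11, a ligand that triggers the trunk to tail switch, had 14.9 and 22.5 CPM at 7 d, against 39.1 and 38.9 CPM at 48 h (log2 fold change -1.05 ± 0.21 SE, limma adjusted p = 0.00387). Hes7, the segmentation clock repressor of presomitic mesoderm, had 1.49 and 1.25 CPM at 7 d, against 57.3 and 50.3 CPM at 48 h (limma adjusted p = 3.91e-06).

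The 2 members that rose have known roles in the neural tube besides the tail bud. Wnt3a, also made by the dorsal midline of the neural tube, had 5.73 and 8.76 CPM in the FGF Sox2+ libraries and was listed at 0 in both Sox2 48 h libraries (limma adjusted p = 3.16e-05). Cyp26a1, a retinoic acid degrading enzyme, had 5.73 and 5.01 CPM at 7 d, against 1.26 and 1.14 CPM at 48 h (log2 fold change 1.53 ± 0.24 SE, limma adjusted p = 0.000727). Both levels were low, and the second 7 d library of each was within a few reads of its floor.

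WNT feedback targets, which report activity of the pathway that CHIR stimulates, fell or were not called. Of 20 members, 19 were tested, 9 were lower and none was higher, with a median of -1.25. A voom fit called 5 lower, as did the fit without the second 7 d library. Lef1 and Tcf7 encode the nuclear factors of the pathway. Lef1 had 55.4 and 71.4 CPM in the FGF Sox2+ libraries, against 168 and 153 CPM in the Sox2 48 h libraries (log2 fold change -1.33 ± 0.17 SE, limma adjusted p = 0.000211). Tcf7 had 21.2 and 23.8 CPM at 7 d, against 72.7 and 70.9 CPM at 48 h (log2 fold change -1.63 ± 0.22 SE, limma adjusted p = 0.000233). Sp5, a direct WNT target and repressor, had 4.67 and 7.51 CPM at 7 d, against 61.8 and 85.2 CPM at 48 h (log2 fold change -3.40 ± 0.64 SE, limma adjusted p = 0.00432). Notum, an extracellular enzyme that inactivates WNT ligands, had 5.52 and 5.01 CPM at 7 d, against 129 and 141 CPM at 48 h (log2 fold change -4.44 ± 1.30 SE, limma adjusted p = 0.0354, not called under a voom fit or without any one of the 4 libraries). Apcdd1, a membrane inhibitor of the pathway, had 12.9 and 17.5 CPM at 7 d, against 119.6 and 126 CPM at 48 h (log2 fold change -2.95 ± 0.81 SE, limma adjusted p = 0.0281, not called under a voom fit or without any one of the 4 libraries). In all 5 genes the libraries of a group lay closer together than the groups did. For Notum a fit of the 4 libraries alone gave a log2 fold change of -4.44 ± 0.19 SE (limma adjusted p = 0.000168). The main fit also took in the spread of the Tbxt-derived libraries at 7 d, where Notum had 6.12, 211.5 and 189.6 CPM. Axin2, the target most often used as a readout, had 45.2 and 100.2 CPM at 7 d, against 156 and 168 CPM at 48 h (log2 fold change -1.25 ± 0.76 SE, limma adjusted p = 0.258). Ccnd1, encoding cyclin D1, had 448 and 542 CPM at 7 d, against 538 and 563 CPM at 48 h (log2 fold change -0.16 ± 0.37 SE, limma adjusted p = 0.786).

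The promoter of Sp5 is printed because it is the member of the WNT list whose window holds the letters of a TCF/LEF motif. It is shown as the promoters above, with capitals for CTTTGAT or its reverse complement ATCAAAG.
Sp5, chr2:70474673-70474922: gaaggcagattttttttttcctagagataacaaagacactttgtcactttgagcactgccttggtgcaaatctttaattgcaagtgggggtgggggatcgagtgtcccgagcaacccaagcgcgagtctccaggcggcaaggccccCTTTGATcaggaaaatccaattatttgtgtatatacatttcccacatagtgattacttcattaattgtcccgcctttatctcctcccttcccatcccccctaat
The match begins 104 bases before the start. Of the 20 WNT list members, 11 had a window and 1 held a match. By window 1 of 18 held a match, and over all windows of that length 3.21% did.

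FGF was present in both media, and its feedback genes were looked up. Of 19 members, all tested, 3 were lower (15.8%, against 6.51% of all genes) and none was higher (against 18.2% of all genes). The median was -0.16. Without the second 48 h library 1 was lower, and without the second 7 d library the median was 0.01. Dusp6, a phosphatase of ERK, had 113 and 133 CPM in the FGF Sox2+ libraries, against 172 and 181 CPM in the Sox2 48 h libraries (log2 fold change -0.52 ± 1.11 SE, limma adjusted p = 0.769). Spry2, an inhibitor of receptor signalling, had 30.6 and 33.8 CPM at 7 d, against 54.01 and 54.4 CPM at 48 h (log2 fold change -0.74 ± 0.28 SE, limma adjusted p = 0.0684). Etv4, an ETS factor downstream of FGF, had 12.5 and 16.3 CPM at 7 d, against 54.5 and 62.9 CPM at 48 h (log2 fold change -1.96 ± 0.48 SE, limma adjusted p = 0.0126, not called without 7 d library 1 or 48 h library 2). Il17rd, the FGF antagonist Sef, had 43.3 and 45.1 CPM at 7 d, against 154 and 142 CPM at 48 h (log2 fold change -1.72 ± 0.25 SE, limma adjusted p = 0.000462). The groups did not overlap for any of the 4. Of 7 genes of FGF receptors and their partners, all tested, 4 were higher and 1 was lower. Fgfr2 had 71.1 and 90.2 CPM at 7 d, against 2.65 and 4.23 CPM at 48 h (log2 fold change 4.21 ± 0.27 SE, limma adjusted p = 2.54e-06). Fgfr1, present in both groups, had 164 and 165 CPM at 7 d, against 93.9 and 70.9 CPM at 48 h (log2 fold change 1.003 ± 0.18 SE, limma adjusted p = 0.00183).

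Retinoic acid promotes the exit from the caudal state and is made and degraded by enzymes and carried by binding proteins. Of 16 genes, 12 were tested, 7 were higher and 2 were lower. Without the second 48 h library 5 were higher and 1 lower, and 1 was lower without 7 d library 1 or 48 h library 1. Crabp1, a cytoplasmic binding protein with the largest fitted increase of the comparison, had 688 and 1512 CPM in the FGF Sox2+ libraries, against 5.55 and 5.71 CPM in the Sox2 48 h libraries (log2 fold change 7.27 ± 0.44 SE, limma adjusted p = 4.27e-06). Crabp2 had 444 and 531 CPM at 7 d, against 104 and 74.1 CPM at 48 h (log2 fold change 2.45 ± 0.47 SE, limma adjusted p = 0.00428). Cyp26b1, a degrading enzyme of hindbrain, had 39.5 and 67.6 CPM at 7 d, against 0 and 0.229 CPM at 48 h (limma adjusted p = 4.48e-06). The nuclear receptors went in different directions. Rara had 30.8 and 37.6 CPM at 7 d, against 17.4 and 16.7 CPM at 48 h (log2 fold change 0.96 ± 0.21 SE, limma adjusted p = 0.00638, not called without 7 d library 2 or 48 h library 2). Rarg, the receptor of the tail bud, had 9.98 and 6.26 CPM at 7 d, against 47.5 and 70.6 CPM at 48 h (log2 fold change -2.72 ± 0.41 SE, limma adjusted p = 0.000764). Stra6, a retinol transporter, had 1.91 and 3.76 CPM at 7 d, against 38.9 and 53.5 CPM at 48 h (limma adjusted p = 0.0225, not called under a voom fit or without 7 d library 1, 48 h library 1 or 48 h library 2).

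Of 15 Hedgehog pathway genes, 12 were tested, 5 were higher and none was lower. The 3 coreceptors Gas1, Cdon and Boc rose, as did Gli2 and Foxa2. Gas1 had 225 and 228 CPM in the FGF Sox2+ libraries, against 20.9 and 24.9 CPM in the Sox2 48 h libraries (log2 fold change 3.25 ± 0.18 SE, limma adjusted p = 1.75e-06). Cdon had 46.3 and 78.9 CPM at 7 d, against 7.83 and 8.34 CPM at 48 h (log2 fold change 2.76 ± 0.33 SE, limma adjusted p = 0.000117). Boc had 35.2 and 62.6 CPM at 7 d, against 4.80 and 5.26 CPM at 48 h (log2 fold change 2.995 ± 0.37 SE, limma adjusted p = 0.000129). Ptch1, receptor and target of the pathway, had 26.3 and 28.8 CPM at 7 d, against 27.1 and 32.8 CPM at 48 h (log2 fold change -0.11 ± 0.22 SE, limma adjusted p = 0.738). Gli1, its most used readout, had 3.82 and 0 CPM at 7 d, against 1.77 and 1.83 CPM at 48 h (limma adjusted p = 0.793). The median of the list was 0.05, and -0.11 under median-of-ratios scaling.

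Of 22 BMP pathway genes, 20 were tested, 10 were higher and 1 was lower. Without the second 48 h library 6 were higher and none was lower. The Id genes, BMP targets that restrain basic helix-loop-helix factors, were among them. Id2 had 676 and 577 CPM in the FGF Sox2+ libraries, against 124 and 117 CPM in the Sox2 48 h libraries (log2 fold change 2.36 ± 0.18 SE, limma adjusted p = 4.9e-06). Id3 had 303 and 567 CPM at 7 d, against 176 and 207 CPM at 48 h (log2 fold change 1.12 ± 0.26 SE, limma adjusted p = 0.00795, not called without 7 d library 2 or 48 h library 1). Id1, with 90.5 and 194 CPM at 7 d, against 84.3 and 93.03 CPM at 48 h, was not called (log2 fold change 0.58 ± 0.28 SE, limma adjusted p = 0.16). Smad6, an inhibitory Smad, had 27.8 and 26.3 CPM at 7 d, against 8.08 and 4.80 CPM at 48 h (log2 fold change 1.95 ± 0.33 SE, limma adjusted p = 0.00115). Bmpr1b, a receptor of the dorsal neural tube, had 12.7 and 15.02 CPM at 7 d, against 0.757 and 1.14 CPM at 48 h (limma adjusted p = 0.000272). Bmp4 had 19.3 and 14.4 CPM at 7 d, against 5.80 and 2.29 CPM at 48 h (log2 fold change 1.90 ± 0.34 SE, limma adjusted p = 0.00183). Bmp2, the gene that fell, had 2.12 and 1.25 CPM at 7 d, against 6.56 and 11.2 CPM at 48 h (limma adjusted p = 0.00451, not called under a voom fit or without 48 h library 2).

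Guidance receptors and ligands, which steer growing axons and also sort progenitors, were the longest list. Of 38 genes, 35 were tested, 20 were higher and 4 lower. Without 1 library the counts were 13 and 4 (7 d library 2), 21 and 1 (7 d library 1), 14 and 2 (48 h library 1) and 13 and 3 (48 h library 2). Dcc, the netrin receptor of commissural axons, had 28.9 and 98.9 CPM in the FGF Sox2+ libraries, against 1.01 and 2.74 CPM in the Sox2 48 h libraries (log2 fold change 4.32 ± 0.50 SE, limma adjusted p = 8.89e-05). Ntn1, encoding netrin-1 itself, had 17.8 and 12.5 CPM at 7 d, against 2.27 and 1.60 CPM at 48 h (log2 fold change 2.45 ± 0.26 SE, limma adjusted p = 4.16e-05). Robo2, a Slit receptor, had 14.01 and 25.04 CPM at 7 d, against 3.03 and 1.37 CPM at 48 h (log2 fold change 2.68 ± 0.32 SE, limma adjusted p = 0.000122). Ephrin receptors went both ways. Epha7 had 245 and 363 CPM at 7 d, against 20.2 and 23.5 CPM at 48 h (log2 fold change 3.71 ± 0.43 SE, limma adjusted p = 0.000185). Efnb3, a ligand of the midline, had 34.4 and 68.2 CPM at 7 d, against 3.53 and 5.71 CPM at 48 h (log2 fold change 3.17 ± 0.32 SE, limma adjusted p = 3.16e-05). Epha5 fell, with 5.95 and 12.5 CPM at 7 d, against 65.8 and 73.3 CPM at 48 h (log2 fold change -2.86 ± 0.64 SE, limma adjusted p = 0.00883, not called without 7 d library 1 or 48 h library 2). Sema6a fell too, with 48.5 and 44.5 CPM at 7 d, against 190.4 and 192 CPM at 48 h (log2 fold change -2.02 ± 0.24 SE, limma adjusted p = 0.000108). Of the 35 genes 27 were higher in the second 7 d library than in the first, with a median difference of -0.56.

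Of 25 adhesion genes of neurons and of epithelia, 21 were tested, 13 were higher and none lower. Among the neuronal ones, Nfasc, encoding neurofascin, had 13.4 and 47.6 CPM in the FGF Sox2+ libraries, against 0.505 and 0.914 CPM in the Sox2 48 h libraries (limma adjusted p = 0.000153). Celsr2, an atypical cadherin, had 91.7 and 150.2 CPM at 7 d, against 16.4 and 16 CPM at 48 h (log2 fold change 2.78 ± 0.39 SE, limma adjusted p = 0.000366). Pcdh8, a protocadherin of brain and of paraxial mesoderm, had 37.6 and 55.1 CPM at 7 d and was listed at 0 in both libraries at 48 h (limma adjusted p = 2.54e-06). Among the epithelial ones, Cdh1, encoding E-cadherin, had 91.5 and 41.3 CPM at 7 d, against 6.82 and 3.43 CPM at 48 h (log2 fold change 3.41 ± 0.37 SE, limma adjusted p = 5.73e-05). Epcam had 147 and 67.6 CPM at 7 d, against 14.9 and 9.83 CPM at 48 h (log2 fold change 2.94 ± 0.33 SE, limma adjusted p = 7.45e-05). The epithelial genes were higher in the first 7 d library and Nfasc and Celsr2 in the second. Of 17 tested matrix genes 8 were higher and 1 lower, with a median of 0.12 that became -0.05 under median-of-ratios scaling. Col2a1 had 70.5 and 96.4 CPM at 7 d, against 11.9 and 8.23 CPM at 48 h (log2 fold change 2.94 ± 0.26 SE, limma adjusted p = 1.3e-05). Vcan, encoding versican, had 35.7 and 77.6 CPM at 7 d, against 142 and 166 CPM at 48 h (log2 fold change -1.52 ± 0.33 SE, limma adjusted p = 0.00635, not called without 48 h library 2).

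Of 26 cell cycle genes, all tested, 10 were higher and none was lower, with a median of 0.48. Without the first 7 d library 5 were called higher. Ccnb1, encoding cyclin B1, had 349 and 273 CPM in the FGF Sox2+ libraries, against 140.5 and 131 CPM in the Sox2 48 h libraries (log2 fold change 1.18 ± 0.16 SE, limma adjusted p = 0.00023). Plk1, a mitotic kinase, had 91.5 and 81.4 CPM at 7 d, against 47.96 and 45.9 CPM at 48 h (log2 fold change 0.86 ± 0.15 SE, limma adjusted p = 0.00132). Top2a had 313 and 233 CPM at 7 d, against 142 and 160.5 CPM at 48 h (log2 fold change 0.83 ± 0.18 SE, limma adjusted p = 0.00545). None of the replication helicase genes Mcm2 to Mcm7 was called. Mcm5, for example, had 135 and 130.2 CPM at 7 d, against 122 and 118 CPM at 48 h (log2 fold change 0.14 ± 0.15 SE, limma adjusted p = 0.531). Of the 26 genes 24 were higher in the first 7 d library than in the second, with a median difference of 0.32. Among cyclins D and inhibitors, Ccnd2 had 887 and 941 CPM at 7 d, against 541 and 503 CPM at 48 h (log2 fold change 0.81 ± 0.16 SE, limma adjusted p = 0.00334). Cdkn1b, encoding the inhibitor p27 of cells that leave the cycle, had 35.7 and 35.1 CPM at 7 d, against 7.32 and 9.60 CPM at 48 h (log2 fold change 1.95 ± 0.28 SE, limma adjusted p = 0.000371). Cdkn1a, encoding p21, had 118 and 189 CPM at 7 d, against 454 and 371 CPM at 48 h (log2 fold change -1.45 ± 0.35 SE, limma adjusted p = 0.0132, not called without 7 d library 1 or 48 h library 1). Cdk6 had 60.5 and 59.5 CPM at 7 d, against 164 and 177 CPM at 48 h (log2 fold change -1.49 ± 0.23 SE, limma adjusted p = 0.000635).

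Developmental timing genes were split, with 6 of 20 higher and 5 lower. Without the second 48 h library 2 were higher and 2 lower, and without the first 4 were higher and 2 lower. Without either 7 d library 3 were lower. Lin28a, an RNA-binding protein of early embryonic stages, had 145 and 120.4 CPM in the FGF Sox2+ libraries, against 342 and 345 CPM in the Sox2 48 h libraries (log2 fold change -1.37 ± 0.17 SE, limma adjusted p = 0.000142). Its paralog Lin28b had 52.2 and 46.3 CPM at 7 d, against 55.5 and 57.8 CPM at 48 h (log2 fold change -0.20 ± 0.43 SE, limma adjusted p = 0.77). Hmga2 had 226 and 268 CPM at 7 d, against 359.8 and 368 CPM at 48 h (log2 fold change -0.56 ± 0.14 SE, limma adjusted p = 0.0137, not called without 7 d library 1, 48 h library 1 or 48 h library 2). Mycn, the Myc gene of neural progenitors, had 80.3 and 80.1 CPM at 7 d, against 25.8 and 18.1 CPM at 48 h (log2 fold change 1.85 ± 0.42 SE, limma adjusted p = 0.00806, not called without 48 h library 2). Nr6a1, a nuclear receptor of trunk development, had 204 and 225 CPM at 7 d, against 92.4 and 107 CPM at 48 h (log2 fold change 1.10 ± 0.29 SE, limma adjusted p = 0.0154, not called under array weights or without 7 d library 2, 48 h library 1 or 48 h library 2). Of 25 genes of neuronal splicing and chromatin, 20 were tested, 7 were higher and 1 lower, and without the second 7 d library 4 were higher. Nova2, a neuronal splicing factor, had 23.7 and 67.6 CPM at 7 d, against 1.77 and 0.914 CPM at 48 h (log2 fold change 4.16 ± 0.45 SE, limma adjusted p = 5.37e-05). Srrm4, which includes neuronal microexons, had 7.01 and 30.1 CPM at 7 d, against 0.252 and 0 CPM at 48 h (limma adjusted p = 0.000319). Ptbp1, a repressor of neuronal exons, had 304 and 282 CPM at 7 d, against 348 and 371 CPM at 48 h (log2 fold change -0.29 ± 0.13 SE, limma adjusted p = 0.114). Rest, a repressor of neuronal genes, had 98.3 and 95.8 CPM at 7 d, against 58.8 and 77.7 CPM at 48 h (log2 fold change 0.52 ± 0.24 SE, limma adjusted p = 0.141). Phf10, a chromatin remodeller subunit of progenitors, fell, with 89.6 and 85.1 CPM at 7 d, against 157 and 155 CPM at 48 h (log2 fold change -0.83 ± 0.18 SE, limma adjusted p = 0.00598).

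Among imprinted genes 6 of 17 tested were higher and none was lower. Mest had 1449 and 2086 CPM in the FGF Sox2+ libraries, against 256 and 256 CPM in the Sox2 48 h libraries (log2 fold change 2.76 ± 0.19 SE, limma adjusted p = 2.54e-06). The maternally expressed RNAs Meg3 and Rian, which lie in the same imprinted cluster, both rose. Meg3 had 395 and 275 CPM at 7 d, against 133 and 86.97 CPM at 48 h (log2 fold change 1.61 ± 0.25 SE, limma adjusted p = 0.000693). Rian had 105 and 76.4 CPM at 7 d, against 34.6 and 22.3 CPM at 48 h (log2 fold change 1.66 ± 0.31 SE, limma adjusted p = 0.00286). Igf2 had 611 and 364 CPM at 7 d, against 626 and 605 CPM at 48 h (log2 fold change -0.38 ± 0.50 SE, limma adjusted p = 0.607). The second 7 d library lay below the other 3.

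Genes of pluripotency were detected at 7 d at levels that differed between the libraries. Of 20 members, 19 were tested, 11 were higher and none was lower, with a median of 1.77. The list summed to 885 and 337.7 CPM at 7 d, against 156 and 144 CPM at 48 h. In the 3 libraries of NMPs sorted for both reporters it summed to 754, 682.5 and 780 CPM. In double negative cells sorted after 7 d in FGF, a single library, it summed to 1403 CPM. Zfp42, a marker of naive pluripotent cells also called Rex1, had 71.3 and 18.8 CPM in the FGF Sox2+ libraries, against 6.18 and 5.94 CPM in the Sox2 48 h libraries (log2 fold change 2.42 ± 0.47 SE, limma adjusted p = 0.00299). Pou5f1, the pluripotency factor Oct4, had 30.1 and 10.02 CPM at 7 d, against 2.65 and 3.43 CPM at 48 h (log2 fold change 2.20 ± 0.45 SE, limma adjusted p = 0.00405). Utf1 had 50.5 and 16.3 CPM at 7 d, against 3.28 and 2.74 CPM at 48 h (log2 fold change 2.90 ± 0.45 SE, limma adjusted p = 0.000629). Klf5 had 134 and 90.2 CPM at 7 d, against 21.6 and 13.4 CPM at 48 h (log2 fold change 2.62 ± 0.43 SE, limma adjusted p = 0.00128). L1td1, an RNA-binding protein of stem cells, had 51.9 and 6.89 CPM at 7 d, against 0.505 and 0.457 CPM at 48 h (limma adjusted p = 0.00122). Of the 19 genes 18 were higher in the first 7 d library than in the second, with a median difference of 2.04 on the log2 scale, the widest of any list. Without that library 8 members were called higher and 2, Dppa5a and Tdh, lower, and without the second 18 were called higher. Nanog, with 5.73 and 0 CPM at 7 d, against 0.252 and 0 CPM at 48 h, was found above the floor in the first 7 d library alone and was not called (limma adjusted p = 0.198).

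Of 11 members of the surface ectoderm list, 9 were tested, 6 were higher and none was lower, and 8 of the 9 were higher in the first 7 d library. Their summed level was 585 and 379 CPM at 7 d, against 65.4 and 54.8 CPM at 48 h. Krt8 and Krt18 encode keratins of simple epithelia. Krt8 had 132 and 102 CPM in the FGF Sox2+ libraries, against 11.6 and 7.20 CPM in the Sox2 48 h libraries (log2 fold change 3.52 ± 0.27 SE, limma adjusted p = 4.48e-06). Krt18 had 123 and 68.9 CPM at 7 d, against 12.4 and 10.97 CPM at 48 h (log2 fold change 2.88 ± 0.40 SE, limma adjusted p = 0.000319). Tfap2c, of surface ectoderm and germ cells, had 39.4 and 27.5 CPM at 7 d, against 1.51 and 2.06 CPM at 48 h (log2 fold change 3.61 ± 0.35 SE, limma adjusted p = 2.35e-05). Hand1, a factor of lateral mesoderm and extraembryonic tissue and among the 12 largest increases, had 74.95 and 26.3 CPM at 7 d, against 0.252 and 0 CPM at 48 h (limma adjusted p = 1.34e-05). Trp63, the defining factor of stratified epithelium, had 0.849 and 0 CPM at 7 d and was listed at 0 in both libraries at 48 h. Whether cells of another type within the sort account for part of these values was not tested.

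Mesenchyme markers were spread the other way. The mesenchyme list summed to 146 and 547 CPM at 7 d, against 304 and 352 CPM at 48 h, and 17 of its 19 tested members were higher in the second 7 d library. Of the 19, 4 were called higher, Col5a1, Pdgfra, Prrx2 and Tbx18, and 1 lower. These shares, 21.1% and 5.26%, were near the 18.2% and 6.51% of all genes. Without the first 7 d library 8 were higher, and without the second 2 were higher and 2 lower. Without the first 48 h library, under voom and under quantile normalization 2 were higher. Col5a1, a fibrillar collagen, had 28.2 and 46.3 CPM at 7 d, against 9.34 and 15.8 CPM at 48 h (log2 fold change 1.498 ± 0.42 SE, limma adjusted p = 0.0224, not called under quantile normalization or a voom fit or without 7 d library 2 or 48 h library 1). Col1a1, another collagen, had 25.5 and 207 CPM in the FGF Sox2+ libraries, against 40.4 and 78.6 CPM in the Sox2 48 h libraries (log2 fold change 0.37 ± 1.05 SE, limma adjusted p = 0.829). Col3a1 fell, with 14.2 and 56.3 CPM at 7 d, against 154 and 142 CPM at 48 h (log2 fold change -2.33 ± 0.45 SE, limma adjusted p = 0.0041, not called under a fit of the 4 libraries alone). The neural crest list summed to 194 and 250.4 CPM at 7 d, against 164 and 131 CPM at 48 h, with 5 of 11 tested members higher, 1 lower, a median of 0.39 that was -0.003 under quantile normalization, and Sox10 at or under its floor in all 4 libraries. Endoderm markers summed to 31.5 and 48.8 CPM at 7 d, against 17.9 and 20 CPM at 48 h, and endothelial markers to 20.2 and 26.3 CPM at 7 d, against 3.53 and 4.80 CPM at 48 h. In double negative cells sorted after 7 d in FGF, a single library, the endoderm list summed to 2019 CPM, the endothelial list to 491 CPM and the surface ectoderm list to 1200 CPM. The part of these markers in the calls above was not tested.

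Further lists are given by their counts. Of 12 tested Sox family genes 6 were higher and none was lower, and 3 were higher without 7 d library 2 or without either 48 h library. Sox11, a SoxC factor of young neurons, had 844 and 1668 CPM in the FGF Sox2+ libraries, against 421 and 401 CPM in the Sox2 48 h libraries (log2 fold change 1.53 ± 0.45 SE, limma adjusted p = 0.0327, not called under median-of-ratios scaling or a voom fit or without 7 d library 2, 48 h library 1 or 48 h library 2). Of 14 tested p53 targets 3 were higher and 3 lower. That is 21.4% in each direction, against 18.2% higher and 6.51% lower over all genes. Without 1 library the counts were 1 and 2 (7 d library 2), 2 and 1 (48 h library 1) and 0 and 2 (48 h library 2). Phlda3, an inhibitor of AKT, had 38.01 and 36.3 CPM at 7 d, against 181 and 213 CPM at 48 h (log2 fold change -2.37 ± 0.32 SE, limma adjusted p = 0.000358). Perp, a desmosome protein of epithelia, had 136 and 96.4 CPM at 7 d, against 31.1 and 19.2 CPM at 48 h (log2 fold change 2.18 ± 0.58 SE, limma adjusted p = 0.02, not called under a pseudocount of 0.25 or without 7 d library 1, 7 d library 2 or 48 h library 2). Of 12 tested immediate early and stress genes 3 were higher (25%) and 1 lower (8.33%). The counts were 1 and 2 without the first 7 d library and 1 and 0 without the second 48 h library. Ier2, an immediate early gene, had 79.6 and 93.9 CPM at 7 d, against 144 and 175 CPM at 48 h (log2 fold change -0.87 ± 0.18 SE, limma adjusted p = 0.00394, not called without 48 h library 2). Of 8 tested genes of presomitic and paraxial mesoderm 3 were higher, Meox1, Pcdh8 and Tcf15, and 1 was lower, Hes7. Tcf15, a factor of somites, had 27.4 and 26.3 CPM at 7 d, against 9.84 and 6.63 CPM at 48 h (log2 fold change 1.61 ± 0.51 SE, limma adjusted p = 0.0383, not called under a pseudocount of 0.25, no filter, median-of-ratios scaling or quantile normalization or without any one of the 4 libraries). Tbx6, the defining factor of presomitic mesoderm, had 0.212 and 0 CPM at 7 d, against 0.757 and 0 CPM at 48 h (limma adjusted p = 0.667). The smooth muscle markers summed to 67.6 and 32.9 CPM at 7 d, against 122 and 72.4 CPM at 48 h. The meninges and choroid plexus markers summed to 34.4 and 35.1 CPM at 7 d, against 24.99 and 30.4 CPM at 48 h, and the blood markers to 6.58 and 7.51 CPM at 7 d, against 6.82 and 4 CPM at 48 h.

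**Figure D5:**
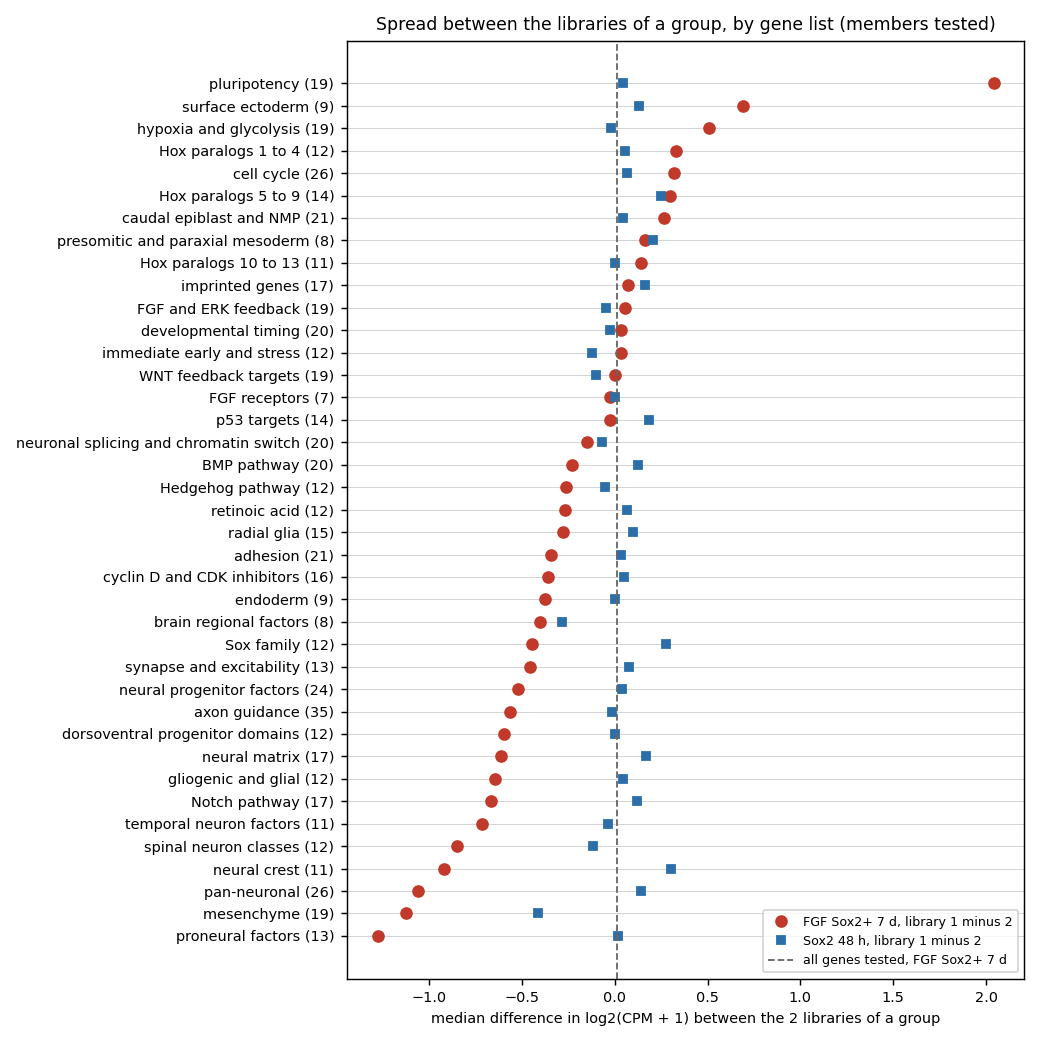
Median difference in log2(CPM + 1) between the 2 libraries of a group (library 1 minus library 2) for each gene list with at least 7 tested members, for FGF Sox2+ cells at 7 d (red circles) and Sox2 48 h cells (blue squares), with the number tested in brackets. The dashed line marks all genes at 7 d, 0.01. At 7 d the pluripotency list lies at 2.04 and the proneural list at -1.28, while the 48 h libraries stay between -0.41 and 0.30.

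The 2 libraries at 7 d differed by gene list, as the plot of the spread between libraries shows. Their log2 values correlated with Pearson's r = 0.964 across genes, which are not independent replicates, and those of the 48 h libraries with r = 0.982. Pan-neuronal, proneural, guidance and mesenchyme genes were mostly higher in the second library. Pluripotency, surface ectoderm, cell cycle and glycolysis genes were mostly higher in the first. All 19 tested genes of hypoxia and glycolysis were higher in the first library, with a median difference of 0.51. Of them 5 were called higher (26.3%, against 18.2% of all genes) and 1 lower (5.26%, against 6.51%) in FGF Sox2+ cells. Without the first 7 d library 3 were higher, and without the second 48 h library 3 were higher and none was lower. Pfkp, a phosphofructokinase, had 25.7 and 13.8 CPM in the FGF Sox2+ libraries, against 3.53 and 2.51 CPM in the Sox2 48 h libraries (log2 fold change 2.31 ± 0.41 SE, limma adjusted p = 0.00149). Ldha, encoding lactate dehydrogenase A, had 556 and 312 CPM at 7 d, against 533 and 456 CPM at 48 h (log2 fold change -0.24 ± 0.35 SE, limma adjusted p = 0.643).

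The medium was compared at a fixed time with the Sox2+ cells kept in FGF/CHIR for 7 d, which are a single library. This comparison shares its FGF Sox2+ libraries with the one above, and the difference of the groups cannot be told apart from the difference of that library. Its p-values assume that this library would vary like those of the other groups. The same fit called 1160 genes (8.96%), 725 higher (5.6%) and 435 lower (3.36%) in FGF Sox2+ cells than in FGF/CHIR Sox2+ cells. Of the neural progenitor factors 18 of 24 were higher and 1, Zic1, was lower. Pax6 had 95.3 and 68.9 CPM in FGF, against 0.206 CPM in FGF/CHIR (limma adjusted p = 5.26e-05). Sox1 had 112 and 179 CPM in FGF, against 5.55 CPM in FGF/CHIR (limma adjusted p = 8.67e-05). Irx3 had 109 and 116 CPM in FGF, against 8.22 CPM in FGF/CHIR (limma adjusted p = 0.0101). The FGF/CHIR library lay below both FGF libraries in each of these genes.

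Neuronal, Hox and WNT genes were set side by side in the same way. Of 26 tested pan-neuronal genes 14 were higher in FGF and none lower. Elavl3 had 26.96 and 101 CPM in FGF, against 1.03 CPM in FGF/CHIR (limma adjusted p = 0.00065). Of the Hox genes of paralogs 5 to 9, 12 of 14 were lower in FGF. Hoxc6 had 26.96 and 22.5 CPM in FGF, against 102 CPM in FGF/CHIR (limma adjusted p = 0.00115). Hoxc13, near its floor in FGF, had 0.849 and 0 CPM in FGF, against 106 CPM in FGF/CHIR (limma adjusted p = 0.000803). Of the WNT feedback targets 7 of 19 were lower in FGF. Nkd2, an inhibitor of the pathway, had 1.70 and 1.25 CPM in FGF, against 86.5 CPM in FGF/CHIR (limma adjusted p = 5.26e-05). Lin28a, which fell relative to 48 h, had 145 and 120.4 CPM in FGF, against 117 CPM in FGF/CHIR (limma adjusted p = 0.662). Cyp26b1 had 39.5 and 67.6 CPM in FGF, against 28.5 CPM in FGF/CHIR (limma adjusted p = 0.35). Neither difference passed the threshold, and for Lin28a the libraries of both media lay close together.

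Among the 12 largest decreases were 5 genes with Gm symbols, Gm13862, Gm8996, Gm20072, Gm4468 and Gm6599, for which the files give no function and which may share reads with near-identical copies. Gm4468 had 3.08 and 7.83 CPM in the FGF Sox2+ libraries, against 33.99 and 218 CPM in the Sox2 48 h libraries (log2 fold change -3.87 ± 0.74 SE, limma adjusted p = 0.00462, not called under a fit of the 4 libraries alone or a voom fit). The second 48 h library was well above the first in all 5, and their values are uncertain. The other named decreases outside the lists were Tril and Styk1. Tril, a coreceptor of Toll-like receptors, had 5.52 and 11.3 CPM at 7 d, against 113 and 138 CPM at 48 h (log2 fold change -3.82 ± 0.29 SE, limma adjusted p = 4.9e-06). Styk1, a kinase-like protein, had 0.637 and 0 CPM at 7 d, against 19.4 and 23.5 CPM at 48 h (limma adjusted p = 5.67e-05). Tspan18, a tetraspanin, was the remaining one of the 12 largest increases, with 26.5 and 45.1 CPM at 7 d and was listed at 0 in both libraries at 48 h (limma adjusted p = 2.54e-06). The libraries of these 3 genes did not overlap between groups, which was a condition for their being named.

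The change of the Sox2-derived cells was also set against that of the Tbxt-derived cells over the same times, a contrast that holds the 4 libraries above. The change differed in 4346 genes (33.6%). In 2512 (19.4%) it was more positive in the Sox2-derived cells than in the Tbxt-derived cells, and in 1834 (14.2%) more negative. Medium is part of that contrast, since the Tbxt-derived cells stayed in FGF/CHIR. Dll1, which the caudal mesoderm also expresses, had 2.33, 0.396 and 0.263 CPM in Tbxt-derived cells at 7 d, against 242 and 245 CPM in Tbxt 48 h cells. It was under its floor in 2 of the 3 Tbxt-derived libraries at 7 d, so the size of its difference is not given here. The differences below are those of the changes on the log2 scale. Nr6a1 had 7.28, 9.70 and 4.74 CPM in Tbxt-derived cells at 7 d, against 163 and 268 CPM in Tbxt 48 h cells, with a difference of 5.82 ± 0.39 SE, limma adjusted p = 1.7e-06. Hoxa10 had 277, 264 and 240.2 CPM in Tbxt-derived cells at 7 d, against 31.2 and 32.4 CPM in Tbxt 48 h cells, with a difference of -4.87 ± 0.37 SE, limma adjusted p = 3.23e-06. In these 3 genes the 7 d levels lay on opposite sides of the 48 h levels in FGF Sox2+ and in Tbxt-derived cells. They lay above them in FGF Sox2+ cells for Dll1 and Nr6a1 and below them for Hoxa10. The single library of Sox2+ cells kept in FGF/CHIR for 7 d had 13.98 CPM of Dll1, 31.25 CPM of Nr6a1 and 94.57 CPM of Hoxa10. Against both Sox2 48 h libraries, Dll1 and Hoxa10 were higher there and Nr6a1 was lower. Rarg had 52.4, 76.6 and 106 CPM in Tbxt-derived cells at 7 d, against 37.4 and 18.7 CPM in Tbxt 48 h cells, with a difference of -4.19 ± 0.55 SE, limma adjusted p = 0.000267.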

How the data were processed

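The deposited values are CPM per gene in 1 table of 15 libraries, made by the authors. Reads were processed with STAR 2.7 and SAMtools 1.21 on GRCm39, per the submitters' processing notes; the annotation, the counting step and the use of UMIs and strand (not given in the sources used here) are unknown. Libraries were primed with oligo-dT, carried a UMI and were fragmented by tagmentation, per the labels' protocols, so values report mostly transcript 3′ ends and are not compared between genes.

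Of 78409 rows, 21909 had no gene name (1.10 to 1.81% of CPM per library) and 92 were ERCC spike-in controls. Both were left out, and 627 rows sharing 311 symbols were summed, which left 56092 named genes. T, Cripto and Drgx were read as Tbxt, Tdgf1 and Prrxl1. Depth, inferred from the CPM step of 1 read, was 0.799 to 9.88 M. Between 71.1 and 78.7% of values above 0 were whole reads within 0.01 reads, so whole reads were not recovered and no count test was run. Intervals and floors cover counting error only.

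limma 3.58.1 (R 4.3.3, statmod 1.5.0) was fitted with a robust mean trend to log2(CPM + 1) of all 15 libraries, with a mean for each of 8 groups and 7 residual degrees of freedom. A gene entered the fit where 2 or more libraries reached 5 CPM. Fold changes are on that scale and understate the change of low genes. p-values were adjusted by Benjamini-Hochberg at 0.05. The code was tested on simulated data. Tables and plots used Python 3.11.15, pandas 2.3.3, numpy 2.4.6 and matplotlib 3.10.9. Promoter windows came from RefSeq (GRCm38.p6).

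Named genes were Sox2, Tbxt, the 12 largest increases and decreases with libraries that did not overlap and at least 20 CPM in the higher group (for increases also in 7 d library 1), and members of 44 gene lists. Some of these genes are not reported here. The groups, members and lists were chosen with earlier results of these data known. Alternatives changed the pseudocount, filter, scaling, library weights, libraries fitted, minimum change, test, replicate block and each library in turn.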

Additional observations from a re-analysis of the deposited data

Results flagged for a closer look

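The change between 48 h and 7 d differed between Sox2-derived and Tbxt-derived cells in 4346 genes, by a test of the difference itself in the limma fit. The Sox2-derived cells changed to FGF alone and the Tbxt-derived cells stayed in FGF/CHIR, so branch and medium cannot be told apart in this contrast. The 12 list members below have the 6 most positive and the 6 most negative differences among members called in both contrasts in the same direction with a mean of at least 20 CPM in a Sox2-derived group. Positive differences were 10.25 for Dll1, 9.49 for Fabp7, 7.96 for Hes5, 7.83 for Dll3, 5.82 for Nr6a1 and 5.81 for Phox2a on the log2 scale. Negative differences were -7.45 for Col3a1, -4.87 for Hoxa10, -4.58 for Nrp2, -4.37 for Stra6, -4.19 for Rarg and -3.99 for Sema3a. A single library of Sox2+ cells kept in FGF/CHIR for 7 d is outside the contrast. It lay below both FGF Sox2+ libraries for the 6 genes with positive differences and above both for the 6 with negative differences. Fabp7 had 21.4 CPM there, against 287 and 571 CPM in FGF. Nrp2 had 308 CPM there, against 43.7 and 55.1 CPM in FGF. The part of the medium was not tested. Dll1, Fabp7, Hes5, Phox2a and Stra6 were at or under their floor in at least 1 library of the contrast, so the size and order of their differences depend on the pseudocount of 1.

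Fabp7 had 1.17, 0 and 0 CPM in Tbxt-derived cells at 7 d, against 16.2 and 8.78 CPM in Tbxt 48 h cells, and its difference was 9.49 ± 0.60 SE, limma adjusted p = 6.28e-07. Hes5 had 0, 0 and 0 CPM in Tbxt-derived cells at 7 d, against 6.99 and 5.91 CPM in Tbxt 48 h cells, and its difference was 7.96 ± 0.47 SE, limma adjusted p = 3.5e-07. Dll3 had 1.75, 1.58 and 1.05 CPM in Tbxt-derived cells at 7 d, against 173 and 126 CPM in Tbxt 48 h cells, and its difference was 7.83 ± 0.61 SE, limma adjusted p = 5.1e-06. These 3 genes of progenitors and Notch signalling were low or at 0 in the Tbxt-derived cells at 7 d. Phox2a had 0.582, 0.396 and 0 CPM in Tbxt-derived cells at 7 d, against 8.91 and 12.3 CPM in Tbxt 48 h cells, and its difference was 5.81 ± 0.65 SE, limma adjusted p = 4.6e-05.

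Col3a1, a collagen of mesenchyme, had 3023, 3155 and 3599 CPM in Tbxt-derived cells at 7 d, against 84.5 and 102 CPM in Tbxt 48 h cells, and its difference was -7.45 ± 0.60 SE, limma adjusted p = 1.79e-05. Nrp2, a semaphorin coreceptor, had 776, 703 and 772 CPM in Tbxt-derived cells at 7 d, against 50.6 and 57.5 CPM in Tbxt 48 h cells, and its difference was -4.58 ± 0.26 SE, limma adjusted p = 3.13e-07. Sema3a, a repulsive guidance ligand, had 118, 136 and 133 CPM in Tbxt-derived cells at 7 d, against 14.4 and 17.6 CPM in Tbxt 48 h cells, and its difference was -3.99 ± 0.34 SE, limma adjusted p = 7.05e-06. All 3 genes were higher in Tbxt-derived cells at 7 d than in any FGF Sox2+ library. Stra6 had 16.01, 172 and 184 CPM in Tbxt-derived cells at 7 d, against 58.3 and 40 CPM in Tbxt 48 h cells, and its difference was -4.37 ± 1.29 SE, limma adjusted p = 0.0287. Its first Tbxt-derived library at 7 d lay far below the other 2.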

How the results depend on the processing

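The comparison of FGF Sox2+ 7 d with Sox2 48 h called 3203 genes. It called 442 against a 2-fold minimum, 2210 with voom, 2751 with a replicate block, and 1456 to 2920 with 1 library left out (2920 without 7 d library 1, 2117 without 7 d library 2, 2096 without 48 h library 1 and 1456 without 48 h library 2). The contrast with Tbxt-derived cells called 4346 genes, 735 against a 2-fold minimum, 3517 with the block, and 2595 to 5185 with 1 library left out, the lowest without Tbxt 48 h library 2. The comparison with FGF/CHIR Sox2+ called 1160 genes, 743 with a filter at 20 CPM, which tests fewer genes, 2039 with array weights, 181 against a 2-fold minimum, 845 with the block, and 997 to 1218 with 1 library left out. The cause of the other moves was not tested, and a group left with 1 library is assumed to vary like the others. Deviations of same-numbered libraries correlated at 0.059 over 6091 genes, so the numbers were not taken as pairs. Of 576 named genes tested, 308 were called, 121 of them in all alternatives that gave a value. Of 8513 gene results under 15 alternatives, 7744 kept their side of the threshold, 614 lost the call, 152 gained it and 3 were called against the sign of the uncalled value reported. Of the 7744, 207 in 111 genes without a call turned sign and none of a called gene did. The 3 are Dppa5a (0.56 with both 7 d libraries, -1.66 without the first and 2.77 without the second), Prrx1 (0.31, 1.74 and -1.12) and Tdh (-0.32, -1.94 and 1.30). Values near the floor of 7 d library 2, 3.76 CPM, are limited by depth.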
